A study of Mus musculus with 6 samples.

Results

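The genes described here mark the ventral lobe of the mouse prostate. They are Scgb2b27, Crabp1, Krtap3-2, Krtap3-3, Trpv6, Rnf186, Kcnk3 and Pigr, 8 of the 24908 genes in the deposited table, which lists them in capitals as SCGB2B27, CRABP1, KRTAP3-2, KRTAP3-3, TRPV6, RNF186, KCNK3 and PIGR. They were chosen by their wild-type values, in FPKM (read fragments divided by transcript length in kilobases and by the depth of the library). Each had at least 20 FPKM in the ventral prostate of the wild-type mouse and was at least 20-fold above both other wild-type lobes. The rule found 15 genes, 0.121% of the 12361 whose mean over the 6 libraries reached 1 FPKM. Of these, 2 Spink genes were left out by the rule, and 5 microRNA or small nucleolar RNA genes (Snord33, Mir25, Mir3072, Mir1938 and Mir704) are not among the members. The values of the genes in the 3 wild-type libraries are therefore a description. The 3 libraries of the MYC mouse took no part in the rule.

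Bulk RNA-seq covered the ventral prostate (VP), dorsolateral prostate (DLP) and anterior prostate (AP) of 1 wild-type mouse (WT) and 1 Hi-MYC littermate (MYC), both male, 12 weeks old and on the FVB background, with 1 library per lobe and genotype and 6 in all. The MYC mouse was heterozygous for a human c-MYC transgene driven in prostate epithelium by ARR2Pb, an androgen-responsive promoter derived from probasin, and both mice were fed a purified diet. Whole lobes were dissociated to a cell suspension before RNA was taken, so that each library mixes epithelial, stromal and immune cells. With 1 mouse per genotype, genotype cannot be told apart from mouse. No p-value was computed, and the 95% intervals below cover the counting of reads in these libraries only.

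The lobes of the rodent prostate release different proteins into the seminal fluid, and their androgen-dependent luminal cells carry programs that differ from lobe to lobe. The genes that mark the ventral lobe encode proteins of very different kinds. Scgb2b27 is a secretoglobin, a subunit of the small secreted androgen-binding proteins, and Crabp1 is a cytosolic carrier of retinoic acid. Krtap3-2 and Krtap3-3 are keratin-associated proteins, a family known from the matrix of hair. Trpv6 is a calcium channel of absorptive and secretory epithelia, Rnf186 is a RING-finger ubiquitin ligase, Kcnk3 (TASK-1) is a background potassium channel, and Pigr is the receptor that carries polymeric immunoglobulin A across an epithelium.

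The libraries carried the prostate markers their labels call for. The luminal keratins Krt8 and Krt18 lay between 388 and 1611 FPKM and Hoxb13, a homeobox gene of the prostate, between 37.9 and 174 FPKM in the 6 libraries. The table's Myc entry had 201 to 230.0 FPKM in the WT lobes and 231 FPKM in the AP, 586 FPKM in the DLP and 1696 FPKM in the VP of the MYC mouse, so that the AP values were alike. Whether transgene reads count toward this entry is not given in the sources used here. Read depth, estimated from the steps between low FPKM values, was 25.5 M (WT AP) to 50.2 M (MYC AP). Seminal vesicle genes summed to 524 FPKM in MYC AP and to at most 11.3 FPKM in the other libraries.

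The first question was whether the genes kept, gained or lost expression in the ventral lobe of the MYC mouse. Changes are given as the log2 ratio of MYC to WT, computed on FPKM + 1, and a ratio of at least 2-fold on that scale is called higher or lower. Of the 8 genes, 2 were higher in MYC VP than in WT VP (Scgb2b27 and Crabp1), 4 were within 2-fold (Krtap3-2, Krtap3-3, Trpv6 and Rnf186) and 2 were lower (Kcnk3 and Pigr). Among the 12361 genes compared, those of mean 1 FPKM or more, which by the rule include all 8, 6.88% were higher, 5.95% lower and 87.2% within 2-fold. Among the 2842 with at least 20 FPKM in WT VP, 6.02% were higher, 9.5% lower and 84.5% within 2-fold. The median log2 ratio of the 8 genes was -0.37, against 0.04 for all genes compared, and they spread from -4.04 to 3.71. Since WT VP entered the rule, nothing is read from the difference. In bulk tissue, fewer cells of a type and less RNA per cell cannot be told apart.

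**Figure D1:**
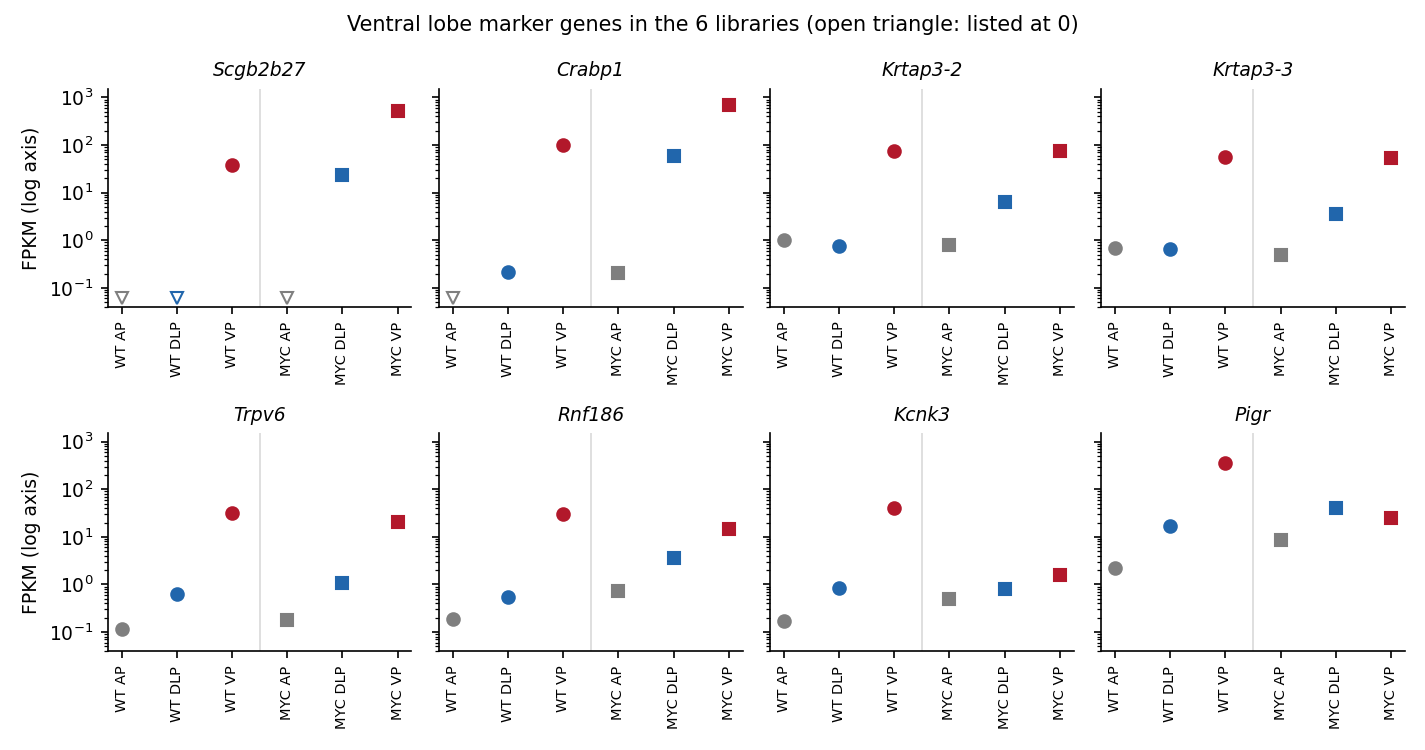
FPKM on a log axis of the 8 ventral lobe genes in the 6 libraries, 1 point per library (circles WT, squares MYC, red VP, blue DLP, grey AP), with open triangles for values listed at 0. WT VP stands above the other WT lobes by the choice of genes. MYC VP runs from 1.55 FPKM (Kcnk3) to 683 FPKM (Crabp1).

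Within the ventral lobe 3 genes changed their place in the order of levels, Scgb2b27, Pigr and Kcnk3. The other 5 kept their order, Crabp1 above Krtap3-2, Krtap3-3, Trpv6 and Rnf186. In WT VP, Pigr had the highest level at 349 FPKM and Rnf186 the lowest at 30.0 FPKM, with Scgb2b27 (38.0 FPKM) below Kcnk3 (41.1 FPKM). In MYC VP, Crabp1 and Scgb2b27 led with 683 and 509.9 FPKM, Pigr (24.4 FPKM) stood below both keratin-associated genes, and Kcnk3 was last with 1.55 FPKM.

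The secreted protein and the retinoic acid carrier were the genes that stood higher in MYC VP, and their start regions are shown because both were higher in the same MYC lobes. The sequences are from RefSeq on GRCm38.p6. They cover 250 bases before to 50 bases after the annotated start, 5′ to 3′ on the gene's strand, with matches to any of the motifs spelled out further on in capitals. The Scgb2b27 window is chr7:34013893-34014192 on the minus strand and the Crabp1 window is chr9:54764498-54764797 on the plus strand.
Scgb2b27: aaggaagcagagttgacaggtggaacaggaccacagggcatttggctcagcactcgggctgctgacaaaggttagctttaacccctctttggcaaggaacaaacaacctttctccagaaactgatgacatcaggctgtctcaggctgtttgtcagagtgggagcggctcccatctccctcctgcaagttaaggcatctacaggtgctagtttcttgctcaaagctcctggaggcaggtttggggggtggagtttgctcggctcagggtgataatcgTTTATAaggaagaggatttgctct
Crabp1: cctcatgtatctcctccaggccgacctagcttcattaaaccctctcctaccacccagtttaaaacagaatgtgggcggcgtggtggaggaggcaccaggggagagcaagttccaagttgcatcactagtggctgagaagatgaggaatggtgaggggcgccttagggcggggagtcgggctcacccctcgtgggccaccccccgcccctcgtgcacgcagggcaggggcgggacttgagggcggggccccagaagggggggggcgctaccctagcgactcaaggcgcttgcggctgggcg

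Scgb2b27 (chromosome 7, 34011919 to 34013942) had 38.0 FPKM in WT VP but is listed at 0 in WT DLP and WT AP. In the MYC mouse it had 509.9 FPKM in VP and 23.0 FPKM in DLP, and it is listed at 0 in AP. The gene thus had a value above 0 in the ventral lobe alone in WT, and in VP and DLP in MYC. Its level was 13.4-fold higher in MYC VP than in WT VP, with a log2 ratio of 3.71 that exceeds that of 99.8% of the genes compared. In DLP the log2 ratio was 4.58, and no fold is given against a value listed at 0. No transcript length was found for Scgb2b27, so that its reads could not be estimated. Sequence shared with other secretoglobins could not be examined either. How far the values of Scgb2b27 depend on the assignment of such reads was not tested.

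Crabp1 (chromosome 9, 54764748 to 54773110) had 97.7 FPKM in WT VP against 0.213 FPKM in WT DLP and is listed at 0 in WT AP. In the MYC mouse it had 683 FPKM in VP, 58.2 FPKM in DLP and 0.201 FPKM in AP. MYC VP and MYC DLP were far above their WT counterparts, while the MYC AP value rests on an estimated 6.07 reads. In VP the level was 6.98-fold higher (95% interval 6.71 to 7.27, log2 ratio 2.79). In DLP it was 273-fold higher (95% interval 126 to 752, log2 ratio 5.61), a ratio that rests on an estimated 6.06 reads in WT DLP. Crabp1 and Scgb2b27 had the most similar profiles of any pair of the 8 genes after Krtap3-2 with Krtap3-3, Krtap3-3 with Trpv6, and Rnf186 with Trpv6. The root mean square difference of their mean-centred log2 values over the 6 libraries was 0.52, against 3.25 for the least similar pair, Crabp1 and Kcnk3.

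The keratin-associated genes were the pair that kept their level in MYC VP, and their start regions are shown because these neighbouring genes had similar profiles over the 6 libraries. The Krtap3-3 window is chr11:99550814-99551113 and the Krtap3-2 window is chr11:99556804-99557103, both on the minus strand. The windows were 63.3% identical over an alignment of 332 positions. Capitals again mark the motifs.
Krtap3-3: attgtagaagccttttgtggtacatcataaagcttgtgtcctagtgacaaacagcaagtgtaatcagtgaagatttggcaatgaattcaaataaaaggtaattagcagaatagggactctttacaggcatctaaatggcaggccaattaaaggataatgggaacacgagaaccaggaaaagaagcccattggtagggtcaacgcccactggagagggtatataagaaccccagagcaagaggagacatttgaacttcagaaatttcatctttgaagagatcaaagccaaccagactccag
Krtap3-2: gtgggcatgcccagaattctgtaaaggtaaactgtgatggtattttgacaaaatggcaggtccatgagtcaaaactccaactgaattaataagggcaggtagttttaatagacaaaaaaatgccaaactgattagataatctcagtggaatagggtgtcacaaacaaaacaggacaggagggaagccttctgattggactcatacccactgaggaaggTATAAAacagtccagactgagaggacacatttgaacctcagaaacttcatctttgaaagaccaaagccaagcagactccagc

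Krtap3-2 (chromosome 11, 99555823 to 99556853) had 76.4 FPKM in WT VP against 0.753 FPKM in WT DLP and 1.01 FPKM in WT AP. In MYC it had 74.7, 6.44 and 0.802 FPKM in VP, DLP and AP. VP and AP were alike in the mice, and DLP stood apart. The VP ratio was 0.978 (95% interval 0.928 to 1.03, log2 ratio -0.03). In DLP the level was 8.55-fold higher in MYC (95% interval 5.70 to 12.8, log2 ratio 2.09).

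Krtap3-3 (chromosome 11, 99550132 to 99550863) had 55.3 FPKM in WT VP against 0.658 FPKM in WT DLP and 0.695 FPKM in WT AP. In MYC it had 52.3, 3.55 and 0.50 FPKM in VP, DLP and AP. The pattern was that of Krtap3-2, with a root mean square difference of 0.21, the smallest among the 28 pairs. The VP ratio was 0.946 (95% interval 0.874 to 1.02, log2 ratio -0.08), and DLP was 5.39-fold higher in MYC (95% interval 3.06 to 9.58, log2 ratio 1.46). The split of reads between these genes is uncertain, since 39.4% of the 75-base windows of the Krtap3-3 transcript and 27.1% of those of Krtap3-2 occur also in another gene of the Krtap3 group. When both are set against the luminal keratins Krt8 and Krt18 of the same library, the VP log2 ratio turns positive, to 0.22 for Krtap3-2 and 0.18 for Krtap3-3.

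Most other genes of hair and skin were low. Of the 54 keratin-associated genes in the table, 41 are listed at 0 in all 6 libraries, and besides both members Krtap3-1 and Krtap17-1 alone had a mean of at least 1 FPKM. Krtap3-1 had 12.4 FPKM in WT VP against 10.4 FPKM in MYC VP, with at most 0.675 FPKM in the other libraries. Krtap17-1 had 14.2 FPKM in WT VP against 19.5 FPKM in MYC VP, with at most 0.723 FPKM elsewhere. The summed level of hair keratin and follicle genes went the other way between lobes. It was 19.5 and 25.2 FPKM in WT AP and WT DLP but 13.0 FPKM in WT VP, and MYC VP had 6.97 FPKM. Padi3 made up 18.6 FPKM of the WT DLP sum. Foxn1 was lower in WT VP than in WT DLP (0.191 and 1.21 FPKM), but Krt39 was higher (3.80 and 2.85 FPKM). Of the 26 hair genes, 7 are listed at 0 throughout. Epidermis genes summed to at most 2.86 FPKM in any library.

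The calcium channel and the ubiquitin ligase were lower in MYC VP than in WT VP without passing 2-fold. Trpv6 (chromosome 6, 41620619 to 41636405) had 32.3 FPKM in WT VP against 0.622 FPKM in WT DLP and 0.115 FPKM in WT AP. In MYC it had 20.1, 1.10 and 0.176 FPKM in VP, DLP and AP. MYC VP therefore still stood far above the other MYC lobes. The VP ratio was 0.622 (95% interval 0.591 to 0.655, log2 ratio -0.66). The DLP ratio was 1.76 (95% interval 1.31 to 2.39, log2 ratio 0.37), and the AP ratio of 1.53 had a 95% interval of 0.662 to 3.92, with an estimated 7.99 reads in WT AP.

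Rnf186 (chromosome 4, 138967119 to 138968365) had 30.0 FPKM in WT VP against 0.545 FPKM in WT DLP and 0.186 FPKM in WT AP. In MYC it had 14.8, 3.54 and 0.722 FPKM in VP, DLP and AP, so that the ventral level was lower and both other levels were higher. The VP ratio was 0.493 (95% interval 0.449 to 0.541). With the pseudocount the log2 ratio was -0.97, just within 2-fold, and it passed 2-fold in 4 of the 5 other settings tried. In DLP the level was 6.48-fold higher (95% interval 4.29 to 10.3, log2 ratio 1.55). In AP it was 3.87-fold higher (95% interval 1.52 to 12.6, log2 ratio 0.54) on an estimated 5.01 reads in WT AP.

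The potassium channel and the immunoglobulin receptor were the genes that were lower in MYC VP. Kcnk3 (chromosome 5, 30588170 to 30625270) had 41.1 FPKM in WT VP against 0.858 FPKM in WT DLP and 0.174 FPKM in WT AP. In MYC it had 1.55, 0.821 and 0.498 FPKM in VP, DLP and AP. The 3 MYC lobes thus lay close to each other, and MYC VP came near the level of the other lobes. The level was 26.5-fold lower in MYC VP than in WT VP (ratio 0.0378, 95% interval 0.0329 to 0.0430, log2 ratio -4.04), and only 0.146% of the genes compared had a lower log2 ratio. In DLP the ratio was 0.957 (95% interval 0.737 to 1.24). In AP it was 2.87 (95% interval 1.67 to 5.21), which on the scale with the pseudocount is a log2 ratio of 0.35.

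Pigr is shown with its start region because it was lower in MYC VP and higher in the other MYC lobes. The window is chr1:130826434-130826733 on the plus strand, with motif matches in capitals.
Pigr: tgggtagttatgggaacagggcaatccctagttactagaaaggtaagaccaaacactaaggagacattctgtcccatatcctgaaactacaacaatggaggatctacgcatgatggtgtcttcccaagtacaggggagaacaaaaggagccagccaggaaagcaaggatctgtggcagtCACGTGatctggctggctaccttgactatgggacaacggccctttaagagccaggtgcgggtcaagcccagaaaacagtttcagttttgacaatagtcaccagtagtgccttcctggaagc

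Pigr (chromosome 1, 130826684 to 130852249) had 349 FPKM in WT VP against 17.2 FPKM in WT DLP and 2.17 FPKM in WT AP. In MYC it had 24.4, 40.4 and 8.51 FPKM in VP, DLP and AP. It was the only one of the 8 genes whose highest MYC level was outside VP. The level was 14.3-fold lower in MYC VP than in WT VP (ratio 0.0700, 95% interval 0.0677 to 0.0723, log2 ratio -3.78). In DLP it was 2.35-fold higher (95% interval 2.25 to 2.46, log2 ratio 1.19) and in AP 3.92-fold higher (95% interval 3.38 to 4.56, log2 ratio 1.59). Pigr was also the gene just inside the rule, 20.3-fold above WT DLP in WT VP.

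**Figure D2:**
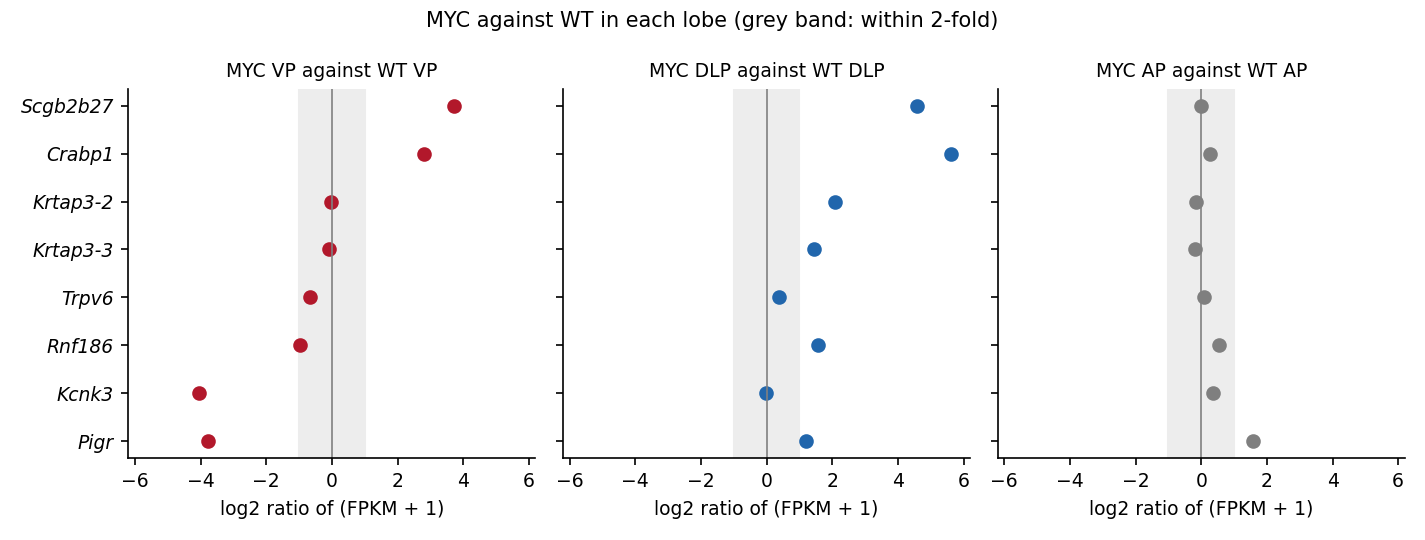
Log2 ratio of MYC to WT on FPKM + 1 for each of the 8 genes in VP, DLP and AP, 1 value per lobe, with the range within 2-fold as a grey band. In VP the values run from -4.04 (Kcnk3) to 3.71 (Scgb2b27), in DLP 6 of 8 lie above the band, and in AP Pigr alone does.

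Stroma and immune cells differed between the ventral libraries. Of the fibroblast and matrix genes, 7 of 10 were lower in MYC VP and none higher, with sums of 734 FPKM in WT VP against 219 FPKM in MYC VP. Of the smooth muscle genes 3 of 10 were lower (434 and 256 FPKM), and of the hematopoietic genes 10 of 14 were higher (256 and 728 FPKM). No marker of these 3 lists was at 0 in any library. Urothelium genes summed to 502 FPKM in WT VP and to 31.9 FPKM in MYC VP, nearly all of it Upk1a (493 and 25.5 FPKM), while Upk3a and Upk3b were at or near 0 in both. Basal genes were lower in 1 of 8 cases and endothelial genes in none. The luminal genes Krt8 and Krt18 were at 1292 and 1611 FPKM in WT VP against 1101 and 1313 FPKM in MYC VP. As a percentage of the mean of both keratins, Kcnk3 went from 2.83% to 0.129%, Pigr from 24.1% to 2.02%, Crabp1 from 6.73% to 56.5% and Scgb2b27 from 2.62% to 42.2%. The same quantity for Krtap3-2 was 5.27% and 6.19%, for Krtap3-3 3.81% and 4.33%, for Trpv6 2.23% and 1.66%, and for Rnf186 2.07% and 1.22%. The 4 genes past 2-fold thus kept their direction relative to luminal keratins, and the part of these other cell types in the values was not tested.

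The next question was what the ventral genes do in the other lobes of the MYC mouse. In MYC DLP, 7 of 8 were higher than in WT DLP and 6 passed 2-fold (Scgb2b27, Crabp1, Krtap3-2, Krtap3-3, Rnf186 and Pigr). The background was 6.46% of all genes compared and 2.92% of those with at least 20 FPKM in WT VP, but low values in WT DLP were part of the choice, so that the counts are not set against each other. The median log2 ratio was 1.5 for the 8 genes and 0.03 for all genes compared. Relative to Krt8 and Krt18 the count in DLP was 5, since the log2 ratio of Pigr was then 0.97. In MYC AP, Pigr alone was at least 2-fold higher than in WT AP and 7 were within 2-fold, with a background of 2.05% higher. This count depends on the pseudocount, and with 0.1 in place of 1 it was 4. Other cell types moved in AP too, with seminal vesicle genes higher in 3 of 3 cases (0.112 and 524 FPKM in sum) and urothelium genes in 2 of 3 (21.5 and 55.2 FPKM). Fibroblast and matrix genes were higher in 3 of 10 cases (1340.0 and 1552 FPKM), and basal genes lower in 2 and higher in 1 of 8 (2414 and 1313 FPKM). Hematopoietic genes were within 2-fold in 14 of 14. The part of these cell types in the AP values was not tested. On FPKM + 1 a gene under 1 FPKM in WT cannot be 2-fold lower, which holds for all members but Pigr in WT DLP and all but Pigr and Krtap3-2 in WT AP, so that no count of lower genes is given.

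The rule used no value of the MYC mouse, but it chose genes near 0 in WT DLP and WT AP, most of which pass the filter through VP. The lobes of the MYC mouse are therefore compared as a description. All 8 genes were higher in MYC DLP than in MYC AP and 6 by at least 2-fold, beside 4.54% of the genes compared, and nothing is read from the difference. Their median log2 ratio of DLP to AP was 1.82, against 0.07 for all genes. The ratio was 5.62 for Crabp1, 4.58 for Scgb2b27, 2.12 for Pigr, 2.05 for Krtap3-2, 1.60 for Krtap3-3, 1.40 for Rnf186, 0.84 for Trpv6 and 0.28 for Kcnk3. In the WT lobes, which the rule did use, 1 of the 8 passed 2-fold in this direction (Pigr), with a background of 3.85% and a median of 0.33 against 0.10.

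As a share of the level in MYC VP, the level in MYC DLP differed between the genes. It was 4.51% for Scgb2b27, 5.46% for Trpv6, 6.78% for Krtap3-3, 8.52% for Crabp1 and 8.62% for Krtap3-2. It was 23.9% for Rnf186, 52.9% for Kcnk3 and 165% for Pigr. The same share was taken for other ventral genes. For 5 of the 6 genes nearest outside the limits of the rule, named further on, it was 3.72% (Krtap17-1), 3.99% (Hdac9), 14.5% (Nupr1), 18.8% (Cyp2b10) and 26.6% (Tac1), and Amd1 was near 0 in both lobes. For the Spink genes that the rule leaves out it was 27.9% (Spink1) and 41.2% (Spink5). For 6 ventral neighbours of the members it was 4.19% (Scgb1b27), 6.02% (Kel), 6.50% (Krtap3-1), 25.3% (Otud3), 31.1% (Ephb6) and 117% (Fcamr). For genes that met the rule in MYC, which caps the share, it was 2.0% (Pla2g2f) and 4.78% (Slc26a4, with less in MYC DLP than in WT DLP, 1.42 against 3.02 FPKM). For Sbp and Sbpl summed it was 5.33%. Ventral genes thus lay below, near and well above the 4.51% to 8.62% of 5 members. In WT DLP the same share of WT VP was at most 2.09% for 7 of the 8 genes, and 4.92% for Pigr. Hematopoietic genes were higher in MYC DLP than in WT DLP in 14 of 14 cases, with sums of 512 and 2091 FPKM. Smooth muscle genes were lower in 4 of 10 cases (527 and 310.0 FPKM in sum). Fibroblast and matrix genes were lower in 3 and higher in 2 of 10 (1436 and 792 FPKM), and basal genes higher in 2 of 8 (1634 and 2171 FPKM). Luminal genes were lower in 2 of 9 cases (16203 and 2550.2 FPKM), with most of the sum from Pbsn (14037 and 267 FPKM). Urothelium genes were lower in 1 of 3 cases (289 and 102 FPKM), and seminal vesicle genes higher in 2 of 3 (0.186 and 11.3 FPKM). The part of ventral tissue carried over into the DLP sample, and of these cell types, was not tested.

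The rule was also applied to the MYC lobes. Of the 8 genes, 7 had their highest MYC level in VP, 6 had at least 20 FPKM there, and Scgb2b27 alone was also at least 20-fold above both other lobes. In all, 10 genes met the rule in MYC, 0.341% of the 2934 genes with at least 20 FPKM in MYC VP. They were Scgb2b27, Sbpl, Pla2g2f, Hdac9, Slc26a4 and 5 microRNA or small nucleolar RNA genes. Sbpl and its near relative Sbp are both listed at 0 in WT VP, and Sbp also in MYC VP, where Sbpl had 20155 FPKM. Their reads may be split, so that a gene listed at 0 here may still have been transcribed. At 10-fold, 5 members qualified (Scgb2b27, Trpv6, Krtap3-3, Krtap3-2 and Crabp1), with a background of 0.648%.

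The ventral excess, the level in VP over that in the higher of the other lobes, is given for each gene. It was 22.2-fold in MYC for Scgb2b27, for which none can be given in WT. It was 51.9-fold in WT and 18.3-fold in MYC for Trpv6, and 79.6-fold and 14.7-fold for Krtap3-3. For Krtap3-2 it was 75.5-fold and 11.6-fold, and for Crabp1 458-fold and 11.7-fold. These 5 genes had an excess above 10-fold in MYC. A large WT excess is what the rule selected on, so that nothing is read from the MYC values being smaller. For Rnf186 the excess was 55.0-fold in WT and 4.18-fold in MYC, and for Kcnk3 47.9-fold and 1.89-fold. For Pigr it was 20.3-fold in WT, while MYC VP had 0.605 of the level of MYC DLP.

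**Figure D3:**
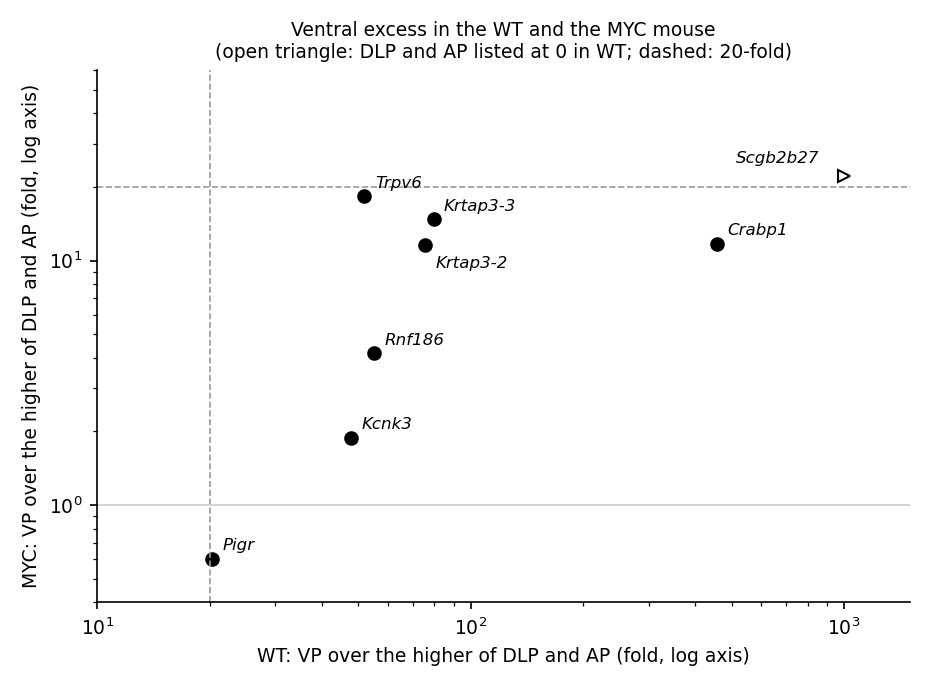
Fold of VP over the higher of the other lobes in WT (x axis) and in MYC (y axis), both on log axes, 1 point per gene, with dashed lines at 20-fold and an open triangle for Scgb2b27, whose other WT lobes are listed at 0. All points lie right of 20-fold in WT by the rule, and in MYC they reach from 0.605 (Pigr) to 22.2 (Scgb2b27).

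Genes just outside the rule had values close to its limits. Just under 20-fold in WT VP were Nupr1 (17.3-fold, 2985 FPKM), Cyp2b10 (16.9-fold, 231 FPKM) and Tac1 (14.8-fold, 24.6 FPKM), with 2064, 201 and 6.41 FPKM in MYC VP. Just under 20 FPKM were Hdac9 (17.3 FPKM), Amd1 (15.7 FPKM) and Krtap17-1 (14.2 FPKM), with 27.0, 0.0177 and 19.5 FPKM in MYC VP. The Spink genes left out by the rule were lower in MYC VP, Spink1 with 25232 FPKM in WT VP against 285 FPKM in MYC VP and Spink5 with 1104 against 30.0 FPKM. Their MYC DLP levels of 79.5 and 12.4 FPKM lay above the WT DLP levels of 0.197 and 0.367 FPKM.

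The profiles most like each gene were sought among the genes compared other than the members, by the root mean square difference of mean-centred log2 values over the 6 libraries. Nupr1, a stress-responsive chromatin protein, was nearest to Trpv6 (0.30), Rnf186 (0.31) and Krtap3-3 (0.55). Cyp2b10, a cytochrome P450 of drug metabolism, was nearest to Krtap3-2 (0.68), Scgb2b27 (1.80) and Crabp1 (1.99). For Scgb2b27 and Crabp1 the distance to the nearest gene that is no member was thus larger than that between them (0.52). Amd1, an enzyme of polyamine synthesis, was nearest to Kcnk3 (0.40), with 15.7 FPKM in WT VP and at most 0.0275 FPKM in the other libraries. BB123696 was nearest to Pigr (0.67), with 32.3 FPKM in WT VP against 5.39 FPKM in MYC VP.

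Genes beside the members on the chromosome were examined after values had been seen. Within 150 kb on each side, 50 neighbours were in the table and 21 had a mean of at least 1 FPKM. Of these, 6 were at least 2-fold above both other WT lobes in WT VP, beside 3.45% of the genes compared. The members were chosen on this same contrast, and some neighbours pass the filter through VP. Nothing is therefore read from the difference. Scgb1b27, the partner secretoglobin whose start lies 9.6 kb from that of Scgb2b27, had 0.907 FPKM in WT VP, 11.9 FPKM in MYC VP and 0.499 FPKM in MYC DLP, and it is listed at 0 in the other libraries. Its VP log2 ratio was 2.76, beside 3.71 for Scgb2b27. Krtap3-1, 10.2 kb from Krtap3-2, was described above.

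Beside Trpv6, the receptor Ephb6 had 24.9 FPKM in WT VP against 20.3 FPKM in MYC VP, and the blood group gene Kel had 3.52 and 3.72 FPKM. Beside Rnf186, the deubiquitinase Otud3 had 10.9 FPKM in WT VP against 26.9 FPKM in MYC VP, the opposite direction. Beside Pigr, Fcamr, another receptor for immunoglobulin A and M, had 7.0 FPKM in WT VP against 2.10 FPKM in MYC VP. Its VP log2 ratio was -1.37, and its DLP ratio of 0.37 and AP ratio of 0.51 had the sign of those of Pigr. The VP log2 ratios of Krtap3-1 (-0.24) and Kel (0.06) were near 0, as were those of Krtap3-2 and Krtap3-3. No count of signs shared between neighbours and members is therefore given. Near Crabp1 the genes Dnaja4, Wdr61 and Ireb2 were not ventral in WT, with 35.2, 28.4 and 5.99 FPKM in WT VP.

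**Figure D4:**
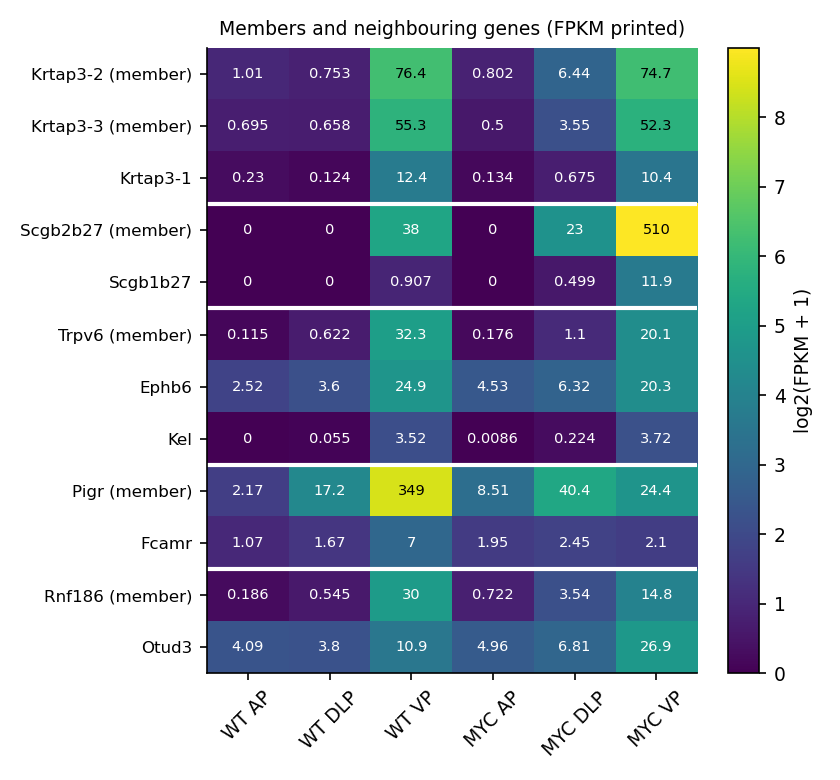
FPKM of 6 members and of their ventral neighbours in the 6 libraries, coloured by log2(FPKM + 1), with the FPKM printed in each cell. Krtap3-1 follows Krtap3-2 and Krtap3-3, Scgb1b27 follows Scgb2b27 at a lower level (11.9 against 509.9 FPKM in MYC VP), and Otud3 is higher in MYC VP where Rnf186 is lower.

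The start regions were searched for 3 motifs on both strands. Of the 8 genes, 7 have an entry among the 32851 RefSeq windows of the same length, and Kcnk3 is named only. The E-box CACGTG, the sequence that MYC with its partner MAX is known to bind, was in Pigr alone, 71 bases before the start, and in 7.15% of windows. The forkhead motif GTAAACA was in none of the 7 and in 3.65% of windows. The letters TATAAA, a form of the TATA box, were in Krtap3-2, 32 bases before the start. On the opposite strand they were in Scgb2b27, 27 bases after the start. In all, 13.6% of windows held them on either strand. Other spellings of the TATA box were not searched, and the Krtap3-3 window holds the letters tatataag, which are not marked. A match of letters is a description only.

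Other genes of the members' pathways were taken from lists. Of the retinoid genes besides Crabp1, 19 were compared. In MYC VP 4 of them were lower and none was higher, and the median of their log2 ratios was -0.53. Aldh1a1, which makes retinoic acid, had 82.7 FPKM in WT VP against 29.6 FPKM in MYC VP (log2 ratio -1.45). The retinal reductase Dhrs3 had 36.2 and 18.0 FPKM (-0.97), and the receptors Rarg (14.5 and 9.75 FPKM) and Rxrb (10.3 and 17.3 FPKM) were within 2-fold. Crabp1 thus stood alone among the retinoid genes in being higher in MYC VP past 2-fold. In MYC DLP 2 of the 19 were higher and none lower, with a median of 0.15.

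Of the calcium transport genes besides Trpv6, 3 were compared. The calcium pump Atp2b4 was lower in MYC VP (5.10 and 1.78 FPKM, log2 ratio -1.14), and the pump Atp2b1 (15.7 and 9.99 FPKM) and the vitamin D receptor Vdr (4.02 and 3.62 FPKM) were within 2-fold. Vdr was higher in MYC DLP, with 8.69 FPKM in WT and 21.9 FPKM in MYC. Of the potassium channels of the Kcnk family besides Kcnk3, 1 of 4 was lower in MYC VP. It was Kcnk1, with 86.1 and 35.4 FPKM and a log2 ratio of -1.26. Kcnk5 (8.24 and 8.36 FPKM), Kcnk2 (1.0 and 0.252 FPKM) and Kcnk6 (1.56 and 0.758 FPKM) were within 2-fold on the scale with the pseudocount. None of these 4 channels had a VP ratio as far from 0 as Kcnk3.

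Of the genes of immunoglobulin A cells and their recruitment, 4 besides Pigr were compared. Sdc1, a syndecan of plasma cells and also of epithelia, was higher in MYC VP (36.3 and 84.2 FPKM, log2 ratio 1.19), and the other 3 were within 2-fold. The B cell gene Cd79a was higher in MYC DLP (0.745 and 5.06 FPKM, log2 ratio 1.80). Of the secretoglobins besides Scgb2b27, Scgb1b27 was higher, while Scgb2b7 (5.91 and 4.13 FPKM) and Scgb2b17 (4.55 and 4.20 FPKM) were within 2-fold in VP. The latter pair was also ventral in WT, with at most 0.137 and 0.874 FPKM in WT DLP and WT AP. The ubiquitin ligases related to Rnf186 had at most 0.384 FPKM in any library.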

How the data were processed

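The 6 libraries were mapped by genotype and lobe from their titles. Per the submitters' processing notes, reads were processed with bcl2fastq 2.18, STAR and Cufflinks on mm10. The annotation is not given in the sources used here. The authors deposited 1 table of FPKM per gene and library. Its name speaks of counts, but the values are not whole, so they were used as FPKM as deposited and no count model was run. Changes are log2 ratios of FPKM + 1 over the 12361 of 24908 genes whose mean reached 1 FPKM, which understates the change of low genes.

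Mapped reads per library (25.5 M to 50.2 M) were estimated from steps between low FPKM values. By these steps 43.1% to 54.4% of the low values came within 0.05 of whole reads. Ratio intervals are exact Clopper-Pearson 95% intervals of those estimates, and 3 reads were taken as the floor. Coordinates and start regions are from RefSeq GRCm38.p6. Transcript lengths and 75-base windows are from GENCODE M1, matched by symbol.

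The members and lists were chosen with earlier results of these data known. Named were all 8 members, the Spink genes the rule leaves out, the 3 genes just outside each limit, the nearest profile of each member, up to 4 genes of highest mean per list, and Myc, Krt8 and Krt18 as checks. A further item is not reported here. Other names were chosen after values were seen. Scripts were tested on simulated data and used pandas 2.3.3, numpy 2.4.6, matplotlib 3.10.9 and scipy 1.17.1 under Python 3.11.15. Alternatives were 4 other scalings, a pseudocount of 0.1, other fold and FPKM limits and other filters.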

Additional observations from a re-analysis of the deposited data

Results flagged for a closer look

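Pigr moved in opposite directions between lobes. Its log2 ratio of MYC to WT in VP less that in DLP was -4.97, and less that in AP it was -5.37. The difference was not tested, since each value comes from 1 library per lobe and genotype. Relative to Krt8 and Krt18 the DLP log2 ratio of Pigr was 0.97, still above 0 but within 2-fold.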

How the results depend on the processing

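No paired analysis was possible because each group is 1 library, and for the same reason no replicate could be left out. Of the log2 ratios of the 8 genes under 4 other scalings and a pseudocount of 0.1, the direction was that of the reported value in 38 of 40 cases in VP, 40 of 40 in DLP and 35 of 35 in AP, where Scgb2b27 is at 0 in both mice and was not counted. The exceptions were Krtap3-2 and Krtap3-3 relative to Krt8 and Krt18. The side of 2-fold was the same in 36, 39 and 32 cases. Rnf186 passed 2-fold in VP with size factors (-1.08), equal sums (-1.20), equal sums without the 20 highest genes (-1.23) and the smaller pseudocount (-1.02), which made 3 genes lower, and relative to Krt8 and Krt18 it was -0.69. Pigr in DLP was within 2-fold relative to Krt8 and Krt18 (0.97).

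With a 4-fold limit, 3 genes in place of 6 were higher in MYC DLP and 0 in place of 1 in MYC AP. With a pseudocount of 0.1, 4 were higher in MYC AP. In MYC, 1 of the 8 genes met the lobe rule at 20-fold, 5 at 10-fold and 5 at 5-fold. Without microRNA and small nucleolar RNA genes, a choice made after seeing the data, the rule found 8 genes in place of 13 besides the Spink genes. With no filter on low values, the share of genes past 2-fold was 6.79% in place of 12.8% in VP, 5.67% in place of 9.85% in DLP and 1.44% in place of 2.65% in AP. The scalings moved the median VP log2 ratio of all genes from 0.04 to between -0.18 and 0.23. Depth limits the low values of WT AP most, where 3 reads of Crabp1 are worth 0.196 FPKM.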
